A study of Mus musculus with 16 samples.

Results

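RNA of the mouse hippocampus was examined here for 7 genes, Set, Phc1, Spag9, Rnf31, Asah1, Ly6e and Mtch1, through all 55 of their named transcripts among the 80137 transcripts of the series. The genes had been chosen because 1 of their transcripts, or for Mtch1 the sum of its transcripts, differed in a comparison that involved learned helpless mice. Male C57BL/6 mice aged 3 months formed 4 groups of 4, with 1 library of pooled left and right hippocampus per mouse. The learned helpless group (LH) and its non-learned helpless counterpart (NLH) both received 180 inescapable foot shocks of 0.4 mA in a shuttle box and, 24 h later, a test of 30 trials with escapable shocks, and they were then divided by how often and how fast they escaped. Control (Ctrl) mice were placed in the box without inescapable shocks and took the same test, so they also received escapable shocks, and homecage (HC) mice had no handling, box or test. All groups were killed at the same time point, 3 h after the test session. LH and NLH are groups of 1 shocked cohort separated by behavior in the test and not by assigned treatment. An escape ended the shock of a trial, so mice that escaped less often or later received more shock in the test. The part of this in the results was not tested.

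Most mammalian genes give several transcripts, which differ in the start site, in the exons that are joined, in retained introns or in the 3′ end. Such isoforms can encode different proteins, can encode the same protein with other untranslated ends, or can lack an open reading frame, so that the level of a gene and the level of an isoform are separate quantities. RNA-seq of short fragments assigns each fragment to isoforms by the few bases that tell them apart, and fragments from exons that isoforms share are divided between them by a statistical model.

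Asah1, Set and Rnf31 had been chosen on LH vs. Ctrl and Spag9, Phc1, Ly6e and Mtch1 on LH vs. NLH, so their values in that comparison are given as a description. The values used were adjusted p-values of limma on log2(FPKM + 0.1), where FPKM is the number of fragments per transcript, scaled to transcript length and to the fragments of the library. Among the transcripts of Asah1, Set and Rnf31 the last one inside the threshold of 0.05 was the Rnf31 transcript ENSMUST00000133903.1 (0.0321) and the next one outside was the Asah1 transcript ENSMUST00000131796.1 (0.484). Among those of Spag9, Phc1 and Ly6e the last inside was the Ly6e transcript ENSMUST00000188042.1 (0.0303) and the next outside was the Phc1 transcript ENSMUST00000159384.7 (0.368). On summed FPKM, Mtch1 had 0.00117 and the next of the 7 genes, Rnf31, 0.452. Apart from the values of the choice above, tests of single transcripts, sums and shares of the 7 genes carry p-values only where no mouse is shared with the choice. That comparison is NLH vs. HC for Asah1, Set and Rnf31 and Ctrl vs. HC for the other 4 genes. The model estimates 1 spread over all 4 groups, so that the SE and p of these tests also draw on the mice of the choice. All other comparisons share mice with the choice and carry differences without a p-value. Where transcripts, sums or shares past a threshold are counted or named in them, this follows in part from the choice and nothing is read from it. Groups without overlap were not rare among all transcripts, at 3.23% in LH vs. NLH, 4.52% in Ctrl vs. HC, 5.07% in NLH vs. Ctrl, 5.39% in NLH vs. HC, 5.94% for LH vs. Ctrl and 6.25% for LH vs. HC.

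Depth was not recorded in the values, but the step between low values gave an estimate of 20140000 fragments in LH replicate 4 to 38030000 in Ctrl replicate 2. LH replicates 2 and 3, at 23810000 and 24730000, and LH replicate 4 were below all other mice, which had 26920000 or more, and the part of depth in isoforms near 0 was not tested. LH replicates 3 and 4 stood apart, with 10846 and 15504 transcripts listed at 0 against 4872 to 7352 in the other mice, and the median SD of log2(FPKM + 0.1) between mice was 0.428 in LH against 0.178 to 0.246 in the other groups. Of 12 hippocampal neuron markers looked for, 11 were found and all 11 had a mean of at least 1 FPKM. The summed FPKM of choroid plexus markers, which can come from tissue next to the hippocampus, ranged from 3.98 to 44.8 in HC, 20.5 to 60.3 in Ctrl, 4.96 to 73.6 in NLH and 2.67 to 108 in LH, without separating the groups. The corresponding sums ranged over all mice from 17.1 to 29.5 for striatum, from 50.6 to 79.5 for microglia, from 144 to 459 for red blood cells, from 295 to 570 for oligodendrocytes and from 212 to 350 for hippocampal neurons. The brain endothelium sum was 31.9 to 36.1 in HC, 31.1 to 35.3 in Ctrl, 35.5 to 39.3 in NLH and 26.9 to 46.3 in LH, so that NLH lay above Ctrl without overlap. Both extremes of each of these sums were in LH mice, except the lowest striatal sum, which was in an NLH mouse. The part of cell makeup in the results was not tested, and in bulk tissue fewer cells of a type and less RNA per cell cannot be told apart.

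Of the 55 transcripts, 21 had a mean of at least 1 FPKM and 13 a mean under 0.1 FPKM. Reference annotation (GENCODE vM21, GRCm38) held 50 of them in the same version and 5 in another version, and classed 34 as protein coding, 13 as retained intron, 7 as processed transcript without an open reading frame and 1 as a target of nonsense-mediated decay. A further 23 transcripts at these loci were assembled from the reads and carry no gene name.

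**Figure D1:**
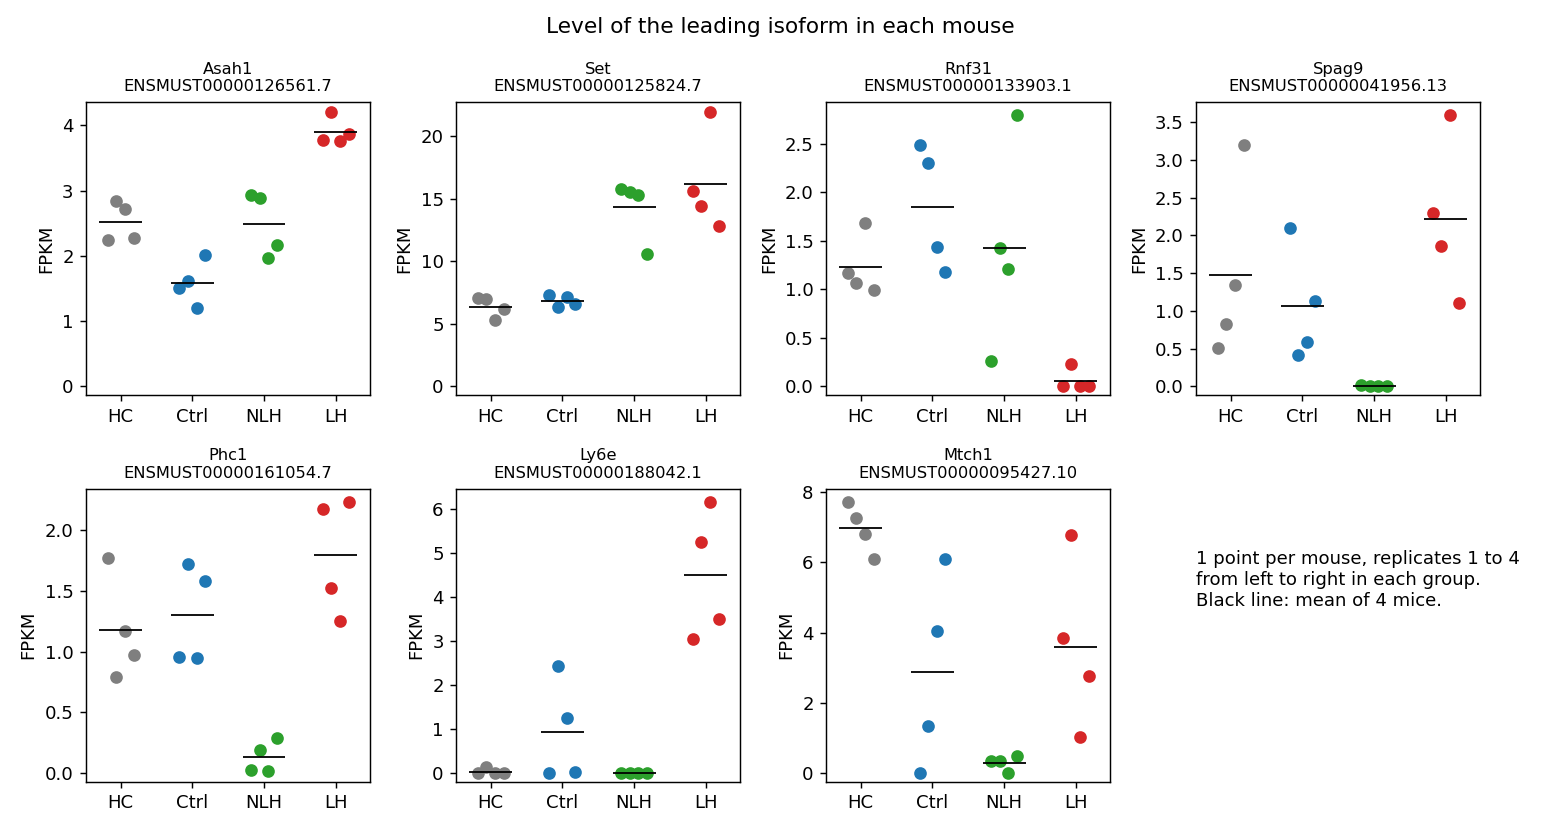
FPKM of the leading isoform of each gene in each of the 16 mice, with 1 point per mouse, groups on the horizontal axis and the mean of 4 mice as a black line. Set is at 10.6 FPKM or more in the 8 NLH and LH mice and at 7.31 or less in the 8 others, Spag9 is at 0.0148 or less and Phc1 at 0.287 or less in the 4 NLH mice, Ly6e is highest in the 4 LH mice and Rnf31 is at 0.228 or less in them.

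Set encodes a nuclear histone chaperone that also inhibits protein phosphatase 2A. Its noncoding transcript ENSMUST00000125824.7 was higher in NLH than in HC, and its LH values were also above those of HC and Ctrl. It lies at chr2:30062601-30071118 on the plus strand and has 8 exons and 1112 bases. It shares 6 internal exons exactly with both coding transcripts, starts in a first exon of 175 bases found in no other Set transcript, and ends 200 bases into the last exon, before most of the 3′ end that the coding transcripts carry. These 3 sequences show how this isoform differs from the coding ones at its 5′ end, with the first exon in lower case, only its coding part for the coding transcripts, and the first 25 bases of the shared exon at chr2:30068269-30068293 in capitals.
Set noncoding ENSMUST00000125824.7, exon chr2:30062601-30062775: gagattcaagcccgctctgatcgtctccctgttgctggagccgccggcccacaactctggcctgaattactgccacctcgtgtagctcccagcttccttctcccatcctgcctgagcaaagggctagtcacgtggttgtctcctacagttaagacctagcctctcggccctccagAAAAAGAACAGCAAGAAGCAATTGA
Set coding ENSMUST00000067996.6, exon part chr2:30066821-30066893: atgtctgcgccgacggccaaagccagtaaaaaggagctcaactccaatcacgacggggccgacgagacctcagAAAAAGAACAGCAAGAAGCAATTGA
Set coding ENSMUST00000102866.9, exon part chr2:30062172-30062280: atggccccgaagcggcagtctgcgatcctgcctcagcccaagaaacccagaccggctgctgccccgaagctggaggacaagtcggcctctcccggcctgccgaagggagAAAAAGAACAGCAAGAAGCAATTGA

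The noncoding isoform measured 7.07, 6.96, 5.27 and 6.17 FPKM in HC mice 1 to 4 and 7.31, 6.33, 7.17 and 6.56 FPKM in Ctrl mice. It measured 15.8, 15.5, 15.3 and 10.6 FPKM in NLH mice and 15.6, 14.4, 21.9 and 12.8 FPKM in LH mice. The 8 mice that had received inescapable shocks were all above the 8 HC and Ctrl mice, and NLH and LH overlapped. Behind these values stood about 149 to 216 estimated fragments per HC mouse and 361 to 458 per NLH mouse. Estimated fragments, here and below, were calculated back from FPKM, transcript length and depth, so they carry the model's division of shared fragments. In NLH vs. HC, which shares no mouse with the comparison used for the choice, the isoform rose by 1.15 ± 0.17 (SE) on the log2 scale, with an adjusted p of 0.0334 in limma over all transcripts and an exact permutation p of 0.0286 (two-sided, n = 4 against 4, the smallest this design allows). The adjusted p ranged from 0.00951 to 0.124 over the alternatives. The call was lost with a pseudocount of 1 (0.057), with the replicate block (0.0702) and with only the 8 mice compared (0.0833). It was also lost on leaving out any 1 of the HC mice or NLH replicates 1, 2 or 3 (0.0504 to 0.124), or Ctrl replicate 2 or 4 (0.0557 and 0.0645), which enter through the shared estimate of the spread. The log2 difference stayed between 1.05 and 1.28 in all of them. The choice had been made on LH vs. Ctrl, where the difference was 1.20 ± 0.17. Sharing mice with it, Ctrl vs. HC gave 0.11 ± 0.17, LH vs. NLH 0.17 ± 0.17, NLH vs. Ctrl 1.04 ± 0.17 and LH vs. HC 1.31 ± 0.17.

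The main coding transcript ENSMUST00000067996.6 overlapped between LH and all other groups. It measured 11.7, 8, 13.5 and 8.45 FPKM in HC, 9.87, 11.2, 11.6 and 13.7 FPKM in Ctrl, 16.2, 16.2, 14.3 and 12.9 FPKM in NLH, and 10.6, 13.1, 15.2 and 3.46 FPKM in LH. Its NLH vs. HC difference was 0.54 ± 0.34 on the log2 scale (limma adjusted p = 0.945, exact permutation p = 0.0571, n = 4 against 4), and LH vs. Ctrl gave -0.31 ± 0.34. The noncoding isoform held 35.0% ± 6.78 (SD, n = 4) of named Set FPKM in HC, 33.7% ± 3.14 in Ctrl, 46.7% ± 1.31 in NLH, and its share in LH was 60.4% ± 12.7. The ratio of the isoform to the rest of the gene in NLH vs. HC, 0.71 ± 0.34 on the log2 scale, did not pass over all isoform shares (limma adjusted p = 0.971), while the 4 NLH shares were all above the 4 HC shares (exact permutation p = 0.0286). Summed over named transcripts Set measured 16.7 to 20.6 FPKM in HC, 18.9 to 21.5 in Ctrl, 23.5 to 33.5 in NLH and 16.3 to 37.2 in LH. The NLH vs. HC difference of the sum was 0.72 ± 0.19 (limma adjusted p = 0.310, exact permutation p = 0.0286; 0.0379 in limma without LH replicate 4), and with the 2 unnamed transcripts of the locus added it was 0.43 ± 0.10 (limma adjusted p = 0.253). The locus with unnamed transcripts measured 22.6 to 25.2 FPKM in the 8 HC and Ctrl mice and 27.1 to 37.7 FPKM in the 8 NLH and LH mice. The other 3 named Set transcripts had means of 0.0654 to 1.36 FPKM.

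Phc1 encodes a Polyhomeotic subunit of Polycomb repressive complex 1, which compacts chromatin and silences developmental genes. Its coding transcript ENSMUST00000161054.7 was lowest in the NLH group, where a second transcript of the same coding sequence was at its highest. The leading isoform lies at chr6:122317850-122339645 on the minus strand and has 14 exons and 3612 bases, and the second, ENSMUST00000081849.9, lies at chr6:122317731-122337015 and has 13 exons and 3683 bases. All 13 coding segments of the pair, 2874 bases in all, have the same coordinates. The isoforms differ by a noncoding 5′ exon of 48 bases, which the leading isoform has and the other lacks, and by where their last exon ends. Each has 0 bases found in no other Phc1 transcript, so the level of each depends on how the model divides shared fragments.

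The leading isoform measured 1.77, 0.794, 1.17 and 0.969 FPKM in HC mice and 0.956, 1.72, 0.944 and 1.58 FPKM in Ctrl mice. It measured 0.0292, 0.193, 0.0212 and 0.287 FPKM in NLH mice and 2.17, 1.52, 1.25 and 2.23 FPKM in LH mice. Every NLH mouse was below every mouse of the other groups, with about 2 to 37 estimated fragments against 92 to 224. The second isoform measured 0.199, 0.990, 0.875 and 0.0513 FPKM in HC, 0.385, 0.00029, 0.350 and 0.00711 FPKM in Ctrl, 1.81, 2.28, 1.58 and 1.18 FPKM in NLH, and 0.108, 1.36, 0.441 and 0.000276 FPKM in LH. It was thus highest in NLH, with LH replicate 2 within the NLH range.

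Added together, the pair measured 1.02 to 2.05 FPKM in HC, 1.29 to 1.72 in Ctrl, 1.47 to 2.47 in NLH and 1.69 to 2.87 in LH, ranges that overlap. Ctrl vs. HC, free of the mice used for the choice, gave 0.14 ± 0.38 on the log2 scale for the leading isoform (limma adjusted p = 1) and -1.09 ± 0.83 for the second (limma adjusted p = 1). With mice shared with the choice, the leading isoform differed by 3.17 ± 0.38 in LH vs. NLH, by -2.72 ± 0.38 in NLH vs. Ctrl and by -2.58 ± 0.38 in NLH vs. HC, and the second by -2.31 ± 0.83, 3.01 ± 0.83 and 1.92 ± 0.83. The size of these differences depends on the added 0.1, since pseudocounts of 0.01 and 1 gave 4.24 and 1.29 for the leading isoform in LH vs. NLH.

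A further 3 Phc1 transcripts each held at least 10% of the gene. ENSMUST00000160696.7, which has 1 more coding exon of 156 bases than the leading isoform, measured 0.237 to 1.02 FPKM in HC, 0.456 to 1.11 in Ctrl, 0.505 to 0.864 in NLH and under 0.01 to 0.682 in LH. The short ENSMUST00000159657.7 measured 0.478 to 0.799 FPKM in HC, 0.509 to 0.791 in Ctrl, 0.393 to 1.23 in NLH and 0 to 1.50 in LH. ENSMUST00000159384.7 was 3.47 and 2.79 FPKM in LH replicates 2 and 3, 0.609 in LH replicate 4, and 0.770 at most in the other 13 mice. Summed Phc1 lay between 3.74 and 5.58 FPKM in the 12 mice outside LH and at 3.97, 9.06, 5.63 and 4.10 FPKM in LH mice, with a Ctrl vs. HC difference of 0.13 ± 0.21 (limma adjusted p = 1) and an LH vs. NLH difference of 0.30 ± 0.21. An unnamed transcript of the locus, MSTRG.61352.10, which was chosen after its values were seen, was listed at 4.02 FPKM in LH replicate 4 and under 0.01 in the other 15 mice. The other 5 named transcripts had means of 0.0210 to 0.321 FPKM.

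**Figure D2:**
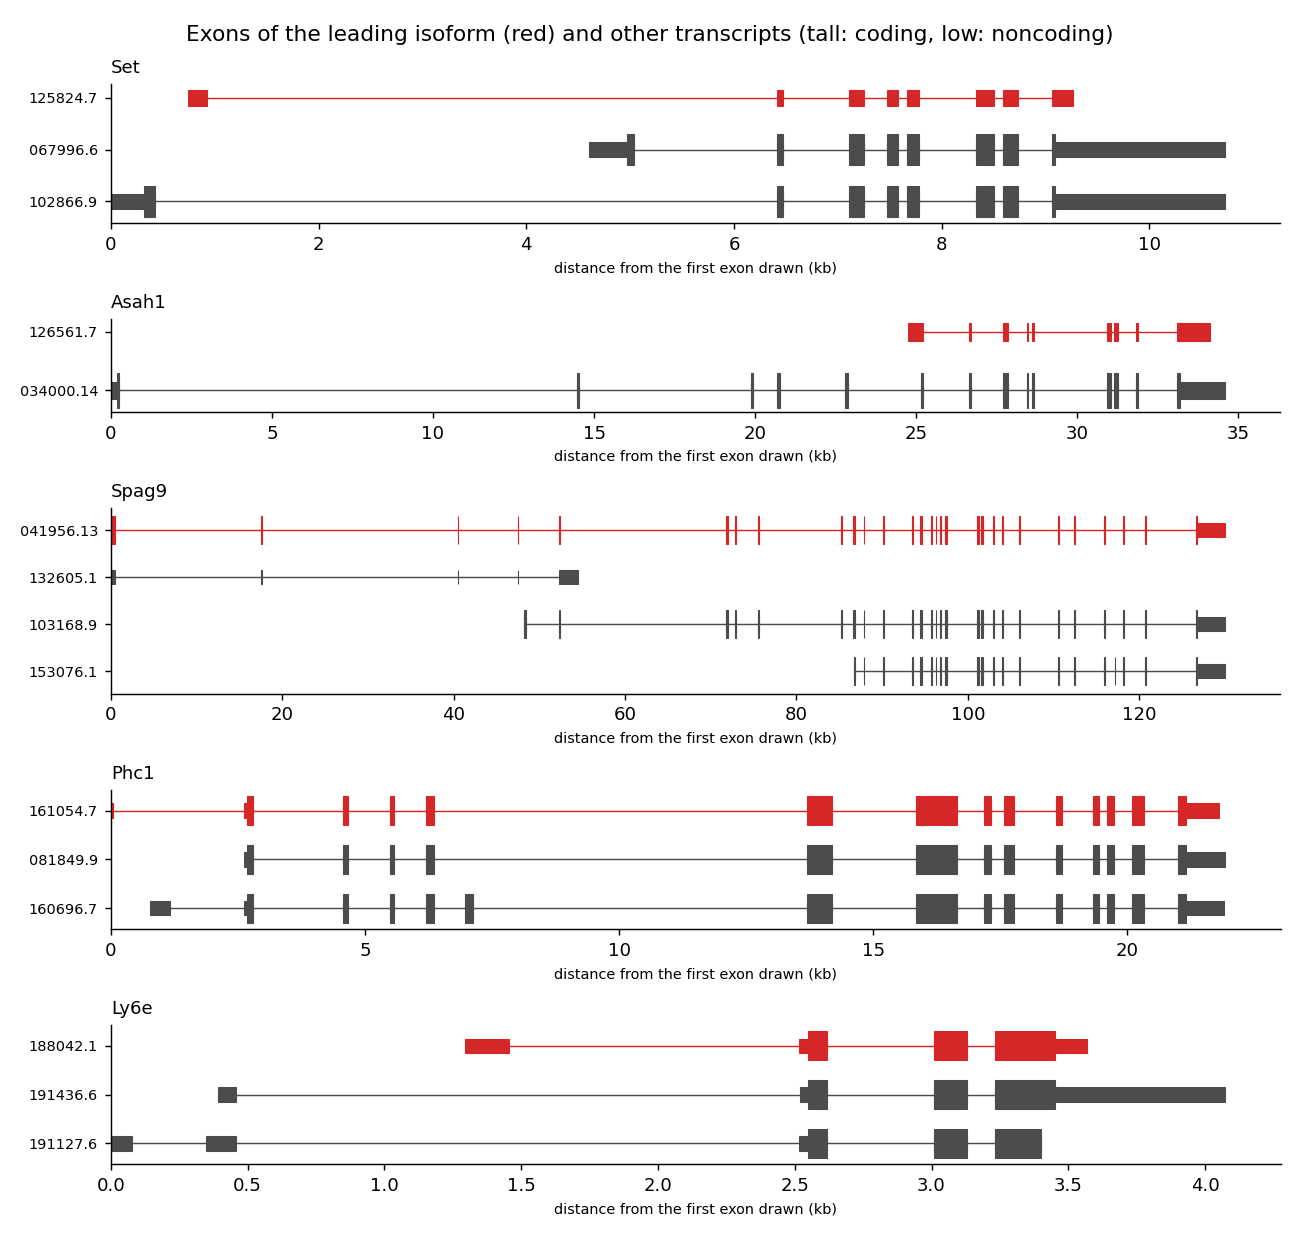
Exon maps of the leading isoform (red) and of the main other transcripts (gray) of Set, Asah1, Spag9, Phc1 and Ly6e, with tall boxes for coding and low boxes for noncoding exon parts and the distance from the first exon drawn in kb on the horizontal axis. The leading isoforms of Set, Spag9, Phc1 and Ly6e differ from the main transcripts at the 5′ end, and that of Asah1 starts inside an intron.

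**Figure D3:**
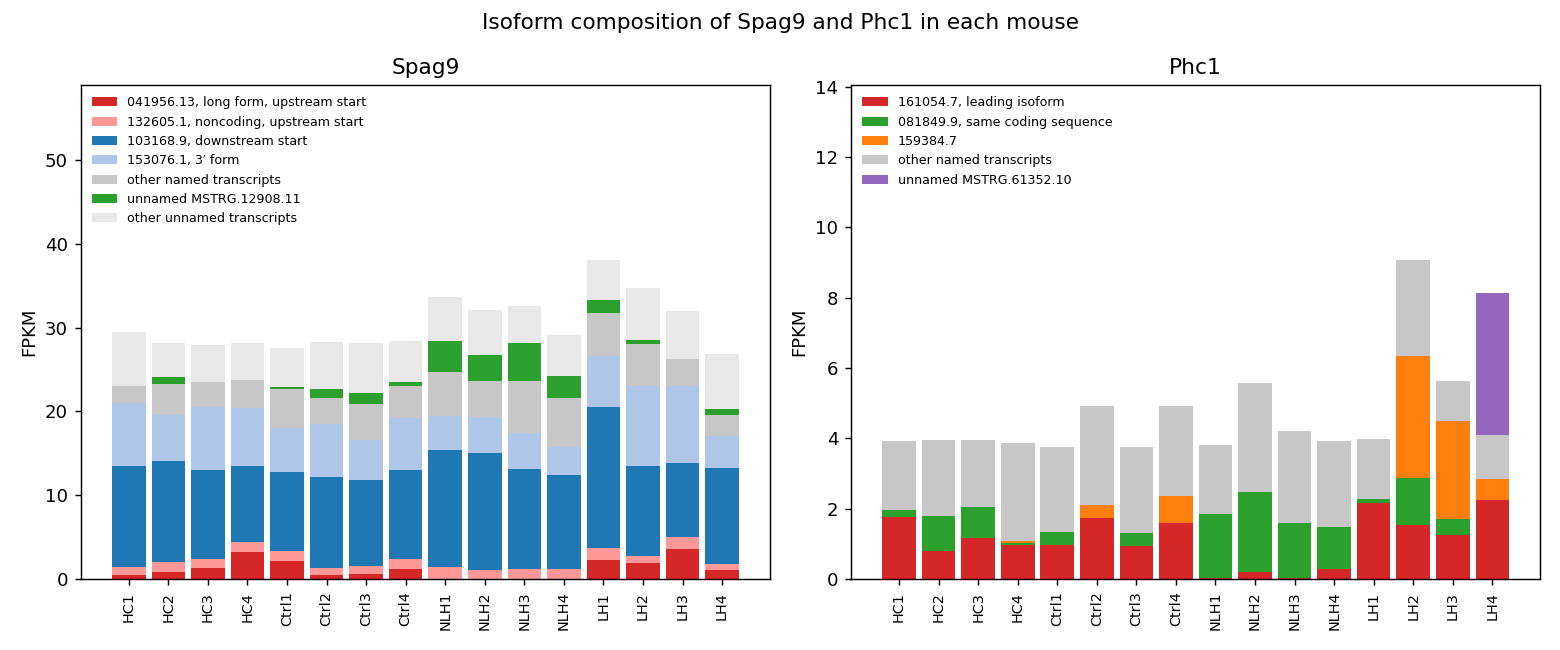
Stacked FPKM of Spag9 (left) and Phc1 (right) transcripts in each of the 16 mice, including transcripts without a gene name. The red segment, the leading isoform, is smallest in the 4 NLH mice in both genes, at 0.0148 FPKM or less for Spag9 and 0.287 or less for Phc1, while the total heights of Spag9 lie between 26.9 and 38.1 FPKM.

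Spag9 encodes JIP4, a scaffold that binds c-Jun N-terminal kinases and links vesicles to kinesin and dynein motors. Its long form ENSMUST00000041956.13 was close to 0 in all 4 NLH mice, whereas the gene as a whole was not. The long form lies at chr11:93996103-94126085 on the plus strand and has 29 exons, 7340 bases and a coding sequence of 3921 bases. The main transcript, ENSMUST00000103168.9, starts downstream at chr11:94044268 and has 26 exons and a coding sequence of 3492 bases. They share 25 exons, the long form has 4 coding exons at the 5′ end that the main one lacks, and the main one has 1 that the long form lacks. The long form has 0 bases found in no other Spag9 transcript, so its level depends on how the model divides shared fragments. These sequences show the junction at which the forms part, with the exon before the junction in lower case and the first 30 bases of the shared exon at chr11:94048408-94048437 in capitals.
Spag9 long form ENSMUST00000041956.13, exon 4, chr11:94043572-94043666: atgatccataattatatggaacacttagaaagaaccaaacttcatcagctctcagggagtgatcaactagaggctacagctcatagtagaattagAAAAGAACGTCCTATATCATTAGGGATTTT
Spag9 main form ENSMUST00000103168.9, coding part of exon 1, chr11:94044365-94044525: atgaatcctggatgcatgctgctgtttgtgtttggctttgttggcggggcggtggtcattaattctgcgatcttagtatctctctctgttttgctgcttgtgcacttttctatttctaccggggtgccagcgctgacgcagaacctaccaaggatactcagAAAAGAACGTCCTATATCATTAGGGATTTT

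The RefSeq promoters (GRCm38.p6) nearest to these starts are printed because the isoforms differ by start site. RefSeq places both starts somewhat upstream of the annotated transcripts above, and each promoter holds 250 bases before the RefSeq start in lower case and 50 bases after it in capitals.
Spag9 upstream promoter, chr11:93995841-93996140, plus strand: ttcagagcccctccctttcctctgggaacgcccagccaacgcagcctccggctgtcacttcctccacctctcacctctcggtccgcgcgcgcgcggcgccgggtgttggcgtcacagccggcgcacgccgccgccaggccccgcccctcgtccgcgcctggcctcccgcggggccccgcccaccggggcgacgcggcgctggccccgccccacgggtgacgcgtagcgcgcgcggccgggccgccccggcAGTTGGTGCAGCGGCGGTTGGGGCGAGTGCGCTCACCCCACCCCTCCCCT
Spag9 downstream promoter, chr11:94043880-94044179, plus strand: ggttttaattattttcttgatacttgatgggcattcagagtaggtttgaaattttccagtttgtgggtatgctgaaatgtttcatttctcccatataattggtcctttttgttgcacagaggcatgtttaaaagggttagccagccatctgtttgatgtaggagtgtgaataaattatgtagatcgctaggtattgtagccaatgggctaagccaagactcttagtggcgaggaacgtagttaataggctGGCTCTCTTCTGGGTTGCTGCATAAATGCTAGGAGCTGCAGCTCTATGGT
The upstream promoter was 78.7% G or C with 45 CpG dinucleotides, and the downstream one 41.0% with 3, against a median of 7 CpG over 32851 promoters of the same length. The GC box GGGCGG, searched on both strands, occurred 4 times upstream and 0 times downstream, and 35.7% of all promoters held it. The TATA box TATAAA, held by 13.6% of promoters, and the cyclic AMP response element TGACGTCA, held by 1.8%, matched neither.

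The long form measured 0.513, 0.832, 1.34 and 3.20 FPKM in HC mice and 2.10, 0.422, 0.583 and 1.13 FPKM in Ctrl mice. It measured 0.0148, 0.00053, 0.00291 and 0.00102 FPKM in NLH mice and 2.30, 1.86, 3.59 and 1.11 FPKM in LH mice. NLH was below every other mouse, and the other 3 groups overlapped. About 0 to 3 estimated fragments stood behind the NLH values and 115 to 741 behind those of the other mice. Ctrl vs. HC gave -0.37 ± 0.52 on the log2 scale (limma adjusted p = 1, exact permutation p = 0.600, n = 4 against 4). The comparisons that share mice with the choice gave 4.35 ± 0.52 for LH vs. NLH, -3.24 ± 0.52 for NLH vs. Ctrl and -3.62 ± 0.52 for NLH vs. HC, sizes that depend on the added 0.1, with 7.20 and 1.62 for LH vs. NLH at pseudocounts of 0.01 and 1.

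A noncoding transcript from the same start, ENSMUST00000132605.1, which begins with the same 4 exons and is described because its values drew attention, was present in every mouse. It measured 0.912 to 1.21 FPKM in HC, 0.916 to 1.19 in Ctrl, 1.09 to 1.42 in NLH and 0.620 to 1.42 in LH. The main transcript measured 9.10 to 12.1 FPKM in HC, 9.55 to 10.8 in Ctrl, 11.2 to 14.0 in NLH and 8.85 to 16.9 in LH. Its Ctrl vs. HC difference was -0.07 ± 0.16 (limma adjusted p = 1). ENSMUST00000153076.1, which begins further downstream and holds 21 exons, measured 5.53 to 7.53 FPKM in HC, 4.77 to 6.42 in Ctrl, 3.37 to 4.30 in NLH and 3.81 to 9.62 in LH, so that NLH did not overlap HC or Ctrl. The unnamed transcript MSTRG.12908.11, likewise picked with its values in view, was 3.70, 3.11, 4.58 and 2.61 FPKM in NLH mice and 1.58 FPKM or less in the other 12. Its exons were not analysed here.

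Named Spag9 transcripts summed to 23.0 to 23.8 FPKM in HC, 20.9 to 23.0 in Ctrl, 21.5 to 24.7 in NLH and 19.6 to 31.8 in LH. The sum differed by -0.08 ± 0.12 in Ctrl vs. HC (limma adjusted p = 1), by 0.16 ± 0.12 in LH vs. NLH and by -0.00 ± 0.12 in NLH vs. HC. The remaining named transcripts had means of 0.00641 to 2.30 FPKM.

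Rnf31 encodes HOIP, the catalytic subunit of the linear ubiquitin chain assembly complex, which feeds into NF-kappaB signaling. Its retained-intron transcript ENSMUST00000133903.1, a noncoding RNA of the plus strand of chr14 whose annotated version differs from the one in the values, was lowest in LH. It measured 1.17, 1.06, 1.68 and 0.991 FPKM in HC mice and 2.48, 2.30, 1.44 and 1.18 FPKM in Ctrl mice. It measured 0.264, 1.42, 1.21 and 2.79 FPKM in NLH mice, whereas in LH mice it was listed at 0.228 FPKM in replicate 2 and under 0.01 in the other 3. All LH mice were below the 12 others. NLH replicate 1 lay close to LH replicate 2. With the length of the annotated version, about 0 to 26 estimated fragments stood behind the LH values, 34 to 494 behind those of NLH, 153 to 247 in HC and 195 to 415 in Ctrl.

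In NLH vs. HC the retained-intron transcript differed by -0.11 ± 0.54 on the log2 scale (limma adjusted p = 1, exact permutation p = 0.743, n = 4 against 4), and without NLH replicate 1 by 0.46. The difference was -3.80 ± 0.54 in LH vs. Ctrl, on which it was chosen, and the comparisons with the same LH mice gave -3.16 ± 0.54 for LH vs. NLH and -3.27 ± 0.54 for LH vs. HC. These sizes depend on the added 0.1, since pseudocounts of 0.01 and 1 gave -6.33 and -1.41 in LH vs. Ctrl. Of the 3 LH mice with values under 0.01, replicates 3 and 4 hold the most transcripts at 0 and replicate 1 holds 6244, and the part of these libraries in the result was not tested.

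The coding transcript ENSMUST00000019443.14 (chr14:55591708-55603693, coding sequence of 3198 bases) measured 1.69 to 2.28 FPKM in HC, 1.29 to 2.01 in Ctrl and 1.74 to 2.11 in NLH. In LH mice it measured 1.74, 2.07, 1.03 and 0.799 FPKM, with replicates 3 and 4 below every other mouse. Its NLH vs. HC difference was -0.05 ± 0.24 (limma adjusted p = 1). A further retained-intron transcript, ENSMUST00000137296.7, measured 0.340 to 0.619 FPKM over HC, Ctrl and NLH and 0.496 to 0.701 in LH. Summed Rnf31 measured 3.31 to 4.80 FPKM in HC, 3.57 to 5.55 in Ctrl, 2.35 to 4.97 in NLH and 2.34, 2.91, 1.79 and 1.80 in LH mice. The NLH vs. HC difference of the sum was -0.16 ± 0.22 (limma adjusted p = 0.958), and without the leading isoform the gene measured 2.34, 2.69, 1.79 and 1.80 FPKM in LH against 2.08 to 4.10 in the 12 others. The other 2 named transcripts had means of 0.0769 and 0.202 FPKM. The assembled locus of Rnf31 also holds 6 transcripts of another named gene.

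Asah1 encodes acid ceramidase, the lysosomal enzyme that splits ceramide into sphingosine and a fatty acid. Its retained-intron transcript ENSMUST00000126561.7 was highest in LH and lowest in Ctrl. It lies at chr8:41340661-41350037 on the minus strand and has 9 exons and 2154 bases, of which 413 lie in an intron of the coding transcript and in no other Asah1 transcript. This sequence spans the end of that intronic stretch, where this RNA reads through into an exon that the coding transcript also holds. It runs 5′ to 3′ on the minus strand, with the last 100 intronic bases (chr8:41349625-41349724) in lower case and the exon (chr8:41349550-41349624) in capitals.
Asah1 ENSMUST00000126561.7: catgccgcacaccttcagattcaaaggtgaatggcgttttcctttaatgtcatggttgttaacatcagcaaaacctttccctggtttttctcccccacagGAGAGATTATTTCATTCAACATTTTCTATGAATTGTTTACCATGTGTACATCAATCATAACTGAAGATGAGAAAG

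The transcript measured 2.25, 2.84, 2.72 and 2.28 FPKM in HC mice and 1.51, 1.62, 1.20 and 2.01 FPKM in Ctrl mice. It measured 2.93, 2.89, 1.97 and 2.17 FPKM in NLH mice and 3.78, 4.21, 3.76 and 3.87 FPKM in LH mice. The LH mice were above all others, the Ctrl mice were below all HC mice, and NLH overlapped both HC and Ctrl. In NLH vs. HC, free of the mice used for the choice, the difference was -0.03 ± 0.16 on the log2 scale (limma adjusted p = 1, exact permutation p = 0.857, n = 4 against 4). It was 1.27 ± 0.16 in LH vs. Ctrl, on which it was chosen. Of the comparisons that share 1 group with the choice, Ctrl vs. HC gave -0.65 ± 0.16, NLH vs. Ctrl 0.62 ± 0.16, LH vs. HC 0.62 ± 0.16 and LH vs. NLH 0.65 ± 0.16, so that relative to HC the Ctrl level was lower and the LH level higher by similar amounts.

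The coding transcript ENSMUST00000034000.14 (chr8:41340197-41374773, 14 exons, coding sequence of 1182 bases) measured 1.87 to 2.95 FPKM in HC, 2.39 to 3.09 in Ctrl, 2.46 to 3.95 in NLH and 2.44 to 3.85 in LH. Its NLH vs. HC difference was 0.36 ± 0.18 (limma adjusted p = 0.929), and LH vs. Ctrl gave 0.22 ± 0.18. The decay target ENSMUST00000110417.7 varied from under 0.01 to 5.40 FPKM, with the highest value in LH replicate 4. ENSMUST00000131796.1, another retained-intron transcript, measured 0.917 to 2.00 FPKM in HC, 0.554 to 1.21 in Ctrl, 0.981 to 1.60 in NLH and under 0.01 to 1.10 in LH. Summed Asah1 measured 6.01 to 7.45 FPKM in HC, 5.64 to 6.35 in Ctrl, 6.17 to 8.17 in NLH and 7.61 to 12.8 in LH. The NLH vs. HC difference of the sum was 0.16 ± 0.14 (limma adjusted p = 0.893). The isoform held 26.7% ± 5.81 (SD, n = 4) of named Asah1 FPKM in Ctrl, 33.9% ± 5.34 in NLH, 38.9% ± 6.46 in HC and 41.5% ± 8.85 in LH. The locus also holds 2 transcripts of another named gene, so its 3 unnamed transcripts were not added to Asah1.

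Ly6e encodes a small glycolipid-anchored protein of the cell surface that takes part in the entry of some viruses into cells. Its transcript ENSMUST00000188042.1 was found at 3 FPKM or more only in the 4 LH mice. It lies at chr15:74956555-74958826 on the plus strand, has 4 exons and 714 bases, and starts in an exon of 159 bases found in no other Ly6e transcript. Its 3 coding segments, 408 bases in all, are those of the most abundant transcript ENSMUST00000191436.6, so the pair differs in its untranslated ends and not in the encoded protein.

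The isoform measured 3.05, 5.24, 6.15 and 3.50 FPKM in LH mice. It was under 0.01 FPKM in all 4 NLH mice and in 3 HC mice, and 0.140 in HC replicate 2. In Ctrl mice it was 2.42 FPKM in replicate 2, 1.26 in replicate 3, 0.0186 in replicate 4 and under 0.01 in replicate 1. The LH mice were above all others, with about 36 to 78 estimated fragments, and the Ctrl mice were divided. Ctrl vs. HC gave 1.85 ± 0.83 on the log2 scale (limma adjusted p = 1, exact permutation p = 0.200, n = 4 against 4). LH vs. NLH, on which it was chosen, gave 5.46 ± 0.83, and pseudocounts of 0.01 and 1 gave 8.73 and 2.42. LH vs. Ctrl and LH vs. HC, with the same LH mice, gave 3.29 ± 0.83 and 5.14 ± 0.83.

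The main transcript ENSMUST00000191436.6 measured 17.2 to 23.0 FPKM in HC, 17.6 to 24.5 in Ctrl, 19.6 to 26.2 in NLH and 17.4 to 26.1 in LH, with a Ctrl vs. HC difference of 0.09 ± 0.15 (limma adjusted p = 1). ENSMUST00000191127.6 measured 7.59 to 9.36 FPKM in HC, 6.97 to 8.41 in Ctrl, 7.53 to 10.9 in NLH and 4.50 to 10.1 in LH. Summed Ly6e measured 28.2 to 35.3 FPKM in HC, 28.1 to 36.8 in Ctrl, 32.4 to 40.3 in NLH and 28.7 to 47.0 in LH, and differed by 0.05 ± 0.14 in Ctrl vs. HC (limma adjusted p = 1) and by 0.04 ± 0.14 in LH vs. NLH. The sign of this last value changed when NLH replicate 1, LH replicate 1 or LH replicate 2 was left out. The other 11 named transcripts, 6 of them with a coding sequence of 408 bases, had means of 0.0239 to 1.48 FPKM.

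Mtch1 encodes a carrier-like protein of the mitochondrial outer membrane, related to the membrane insertase Mtch2. Its named transcripts were low in NLH, but they held 12.8% of the FPKM of the locus, and the locus with its unnamed transcripts showed no such pattern. The leading isoform ENSMUST00000095427.10, which is coding and lies on the minus strand of chr17, measured 7.71, 7.27, 6.81 and 6.10 FPKM in HC mice. In Ctrl mice it was under 0.01 in replicate 1 and 1.35, 4.05 and 6.08 FPKM in the others. It measured 0.351, 0.332, under 0.01 and 0.474 FPKM in NLH mice and 3.84, 6.78, 1.02 and 2.75 FPKM in LH mice. NLH lay below HC and LH, and Ctrl overlapped NLH and LH and lay below HC, with its highest mouse close to the lowest HC mouse. With the length of the annotated version, about 0 to 31 estimated fragments stood behind the NLH values, 0 to 372 behind those of Ctrl, 44 to 283 in LH and 347 to 434 in HC.

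In Ctrl vs. HC the leading isoform differed by -2.34 ± 1.00 on the log2 scale, with no overlap of the groups (limma adjusted p = 1, exact permutation p = 0.0286, n = 4 against 4). Of all transcripts, 4.52% did not overlap in that comparison. The sum of named transcripts was 9.65, 8.51, 8.67 and 9.32 FPKM in HC mice, 3.22, 3.47, 9.17 and 7.55 in Ctrl, 1.78, 1.55, 1.28 and 1.78 in NLH, and 7.47, 8.82, 10.1 and 16.5 in LH. The Ctrl vs. HC difference of the sum was -0.76 ± 0.29 (limma adjusted p = 1, exact permutation p = 0.0857). LH vs. NLH, on which the gene was chosen, gave 2.62 ± 0.29, and NLH vs. Ctrl and NLH vs. HC, with the same NLH mice, gave -1.68 ± 0.29 and -2.44 ± 0.29. ENSMUST00000153658.1, a coding transcript, was 6.09 and 13.5 FPKM in LH replicates 3 and 4, which have the most transcripts at 0, and under 0.01 in the other 14 mice. Without both of these replicates the LH vs. NLH difference of the sum was 2.29.

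The 6 unnamed transcripts of the locus summed to 38.0 to 49.2 FPKM in HC, 47.5 to 56.2 in Ctrl, 41.6 to 51.6 in NLH and 29.1 to 62.2 in LH. The largest of them, MSTRG.30399.2, picked with its values in view, measured 16.9 to 36.1 FPKM over the 16 mice. With them added, the locus measured 46.7 to 58.5 FPKM in HC, 51.9 to 59.7 in Ctrl, 43.4 to 53.2 in NLH and 45.6 to 71.0 in LH. The differences were then 0.11 ± 0.13 in Ctrl vs. HC (limma adjusted p = 1), 0.19 ± 0.13 in LH vs. NLH and -0.11 ± 0.13 in NLH vs. HC. The named share of the locus was 17.5% ± 1.41 (SD, n = 4) in HC, 10.4% ± 5.10 in Ctrl, 3.36% ± 0.797 in NLH, and for LH it was 20.6% ± 11.2. The retained-intron transcript ENSMUST00000151739.1 measured 1.22 to 1.42 FPKM in NLH, 1.25 to 1.94 in HC, 1.15 to 1.82 in Ctrl and 0.253 to 1.43 in LH, and its share of named Mtch1 FPKM was 83.0% ± 11.7 (SD, n = 4) in NLH and 8.30% ± 6.10 in LH. These shares move with the named sum on which the gene was chosen. The other 3 named transcripts had means of 0.0406 to 0.548 FPKM.

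**Figure D4:**
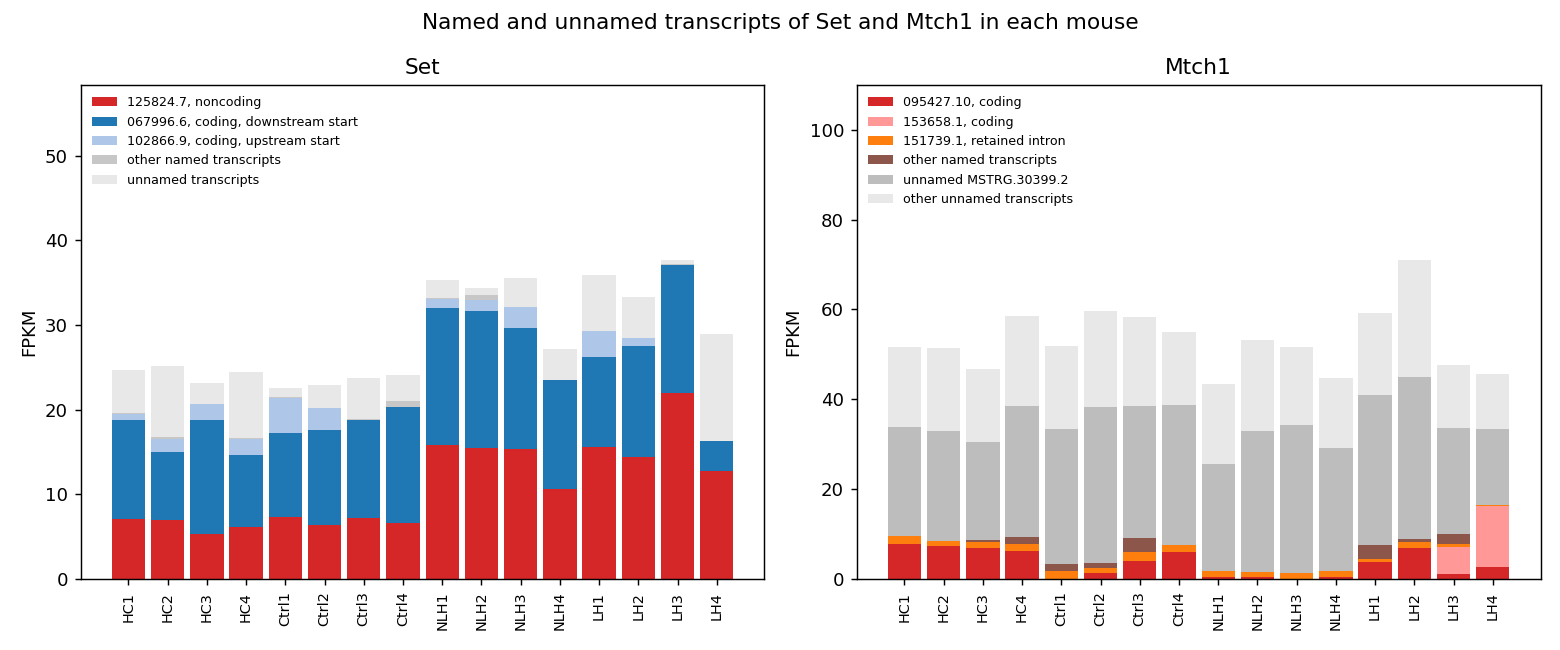
Stacked FPKM of Set (left) and Mtch1 (right) transcripts in each of the 16 mice, including transcripts without a gene name. In Set the red noncoding isoform is larger in the NLH and LH mice, and in Mtch1 the gray unnamed transcripts make up most of each bar.

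**Figure D5:**
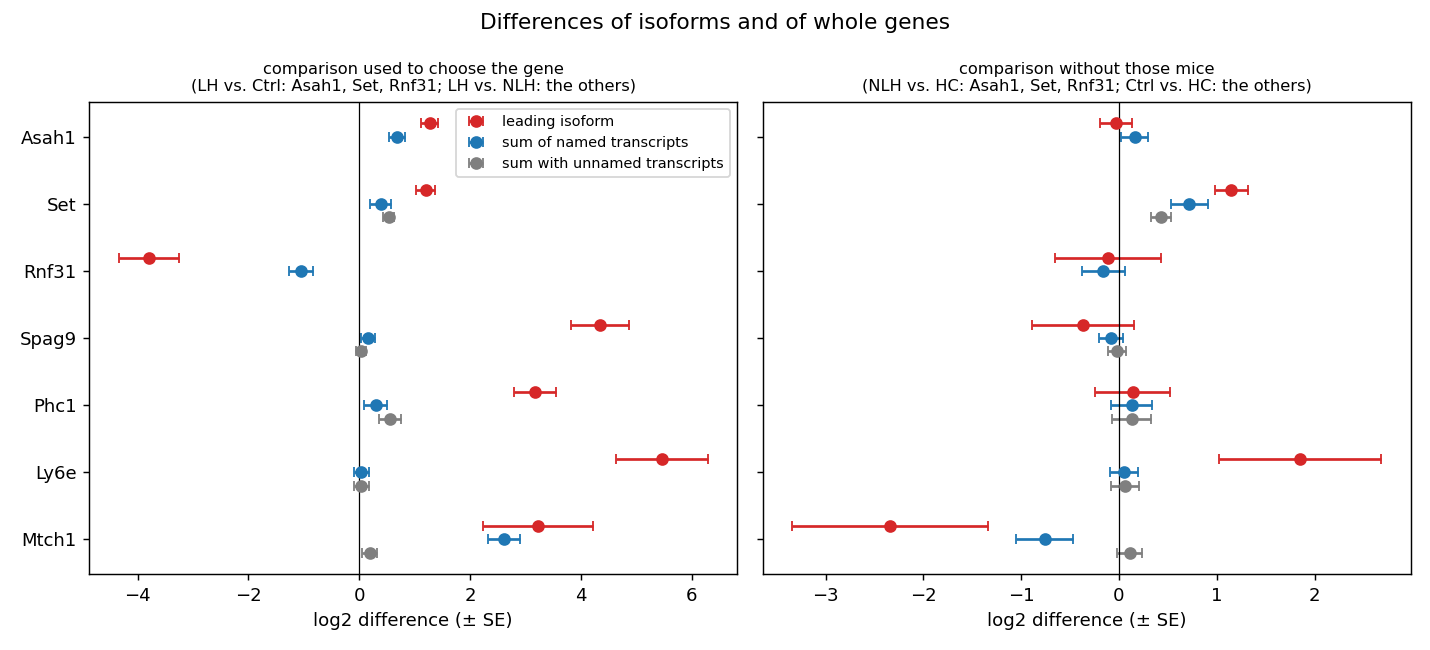
Log2 differences with SE of the leading isoform, the sum of named transcripts and the sum with unnamed transcripts for each gene, in the comparison used to choose it (left) and in the comparison without those mice (right). Sums with unnamed transcripts are not shown for Asah1, whose locus holds another gene, or for Rnf31, whose locus has none. On the right the leading isoform of Mtch1 stands at -2.34, that of Ly6e at 1.85, that of Set at 1.15 and those of Asah1, Rnf31, Spag9 and Phc1 between -0.37 and 0.14, and that of Set has a smaller SE (0.17) than those of Mtch1 (1.00) and Ly6e (0.83).

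Counted over the 7 genes, transcripts past the threshold were 3 of 55 in LH vs. Ctrl, against 0.0462% of all transcripts, and also 3 of 55 for LH vs. NLH, against 0.0412%, as the choice of genes made them. The 3 past it in LH vs. HC (0.14% of all transcripts), of Set, Rnf31 and Ly6e, and the 1 in NLH vs. Ctrl (0.0125%), of Phc1, belong to genes chosen with the same LH or NLH mice. In NLH vs. HC 3 passed (0.0237%), of which those of Spag9 and Phc1 likewise belong to genes chosen with the NLH mice and only that of Set to a gene chosen without them. Its p still draws on the spread of the LH and Ctrl mice of the choice, and with only the 8 HC and NLH mice it did not pass (limma adjusted p = 0.0833). In Ctrl vs. HC 0 of 55 passed in limma (0.00374% of all transcripts), with 3 (5.45%) at an unadjusted p under 0.05, against 3.45% of all transcripts, and 3 by the equal-variance test on FPKM, against 6.68%. The median log2 difference of the 55 transcripts lay between -0.03 and 0.11 over the 6 comparisons, beside -0.08 to 0.01 over all transcripts. On summed FPKM, Mtch1 alone passed, in LH vs. NLH (0.0109% of all genes), on which it was chosen, and in NLH vs. HC (0.0219%), which holds the same NLH mice. The call in LH vs. NLH follows from the choice and the call in NLH vs. HC in part. In the other 4 comparisons 0 of 7 sums passed in limma, beside 0 (Ctrl vs. HC and LH vs. Ctrl), 0.00547% (NLH vs. Ctrl) and 0.17% (LH vs. HC) of all genes. At an unadjusted p under 0.05 there were 1 to 3 (14.3% to 42.9%), against 2.7% to 13.2% of all genes. The equal-variance test gave 1 to 3, against 8.01% to 9.57%. LH vs. Ctrl was used to choose Asah1, Set and Rnf31, and each of the 4 comparisons shares mice with the choice of some genes. No excess is read from these counts. Isoform shares past the threshold were 3 of 55 in LH vs. NLH (0.0295% of all shares), 1 in LH vs. HC (0.0461%) and 1 in NLH vs. HC (0.0129%), all of Spag9, Ly6e and Mtch1, which were chosen with the same LH or NLH mice. In the other 3 comparisons 0 shares passed in limma, beside 0.00369% (Ctrl vs. HC), 0.00738% (NLH vs. Ctrl) and 0.0258% (LH vs. Ctrl) of all shares. At an unadjusted p under 0.05 there were 5 to 19 (9.09% to 34.5%), against 3.36% to 10.6% of all shares. The 19 were in LH vs. Ctrl, on which Asah1, Set and Rnf31 were chosen, and shares of 1 gene move against each other. No excess is read from these counts.

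Over the 16 mice the leading isoforms of Spag9 and Phc1 were among each other's closest transcripts (Pearson r = 0.81 of log2(FPKM + 0.1), a description over mice that share group and library). Both had been chosen on LH vs. NLH, so their likeness in those groups follows from the choice. Among transcripts of other genes with a mean of at least 1 FPKM, the closest to the Set isoform were those of Kcna2, a potassium channel (r = 0.94), and Supt16, a histone chaperone subunit (r = 0.93). Their group means were 10.4, 10.4, 12.3 and 13.1 FPKM and 7.43, 7.29, 9.15 and 9.43 FPKM in HC, Ctrl, NLH and LH. Close to the Asah1 transcript was that of Nlgn1 (r = 0.88), and the closest to Rnf31 were those of Mtf2 and Crtc1 (both 0.91), to Phc1 also one of Sep15 (0.83), to Spag9 also one of Adcy8 (0.78), to Ly6e those of Ubxn2a (0.87) and Dlx6os1 (0.83), and to Mtch1 those of Ptms and Trf (both 0.78).

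Genes related to the 7 by pathway, complex, family or compartment were taken from 7 lists, and not all of them are known to act with the 7. Tested were 30 genes on sphingolipid breakdown, 22 on SET and its phosphatase, 21 on linear ubiquitin and NF-kappaB, 25 on JNK scaffolds and motor adaptors, 21 on Polycomb repressive complex 1, 14 of the Ly6 family and 25 of the mitochondrial outer membrane. Of 158 genes tested on summed FPKM, 0 passed in limma in any of the 6 comparisons, with 0 to 16 per comparison (0% to 10.1%) at an unadjusted p under 0.05, against 2.7% to 13.2% of all genes. The equal-variance test without adjustment gave 27 (17.1%) in NLH vs. HC and 23 (14.6%) in NLH vs. Ctrl, against 11.1% and 9.57% of all genes. It gave 12 (7.59%) in LH vs. HC, 10 (6.33%) each for LH vs. Ctrl and Ctrl vs. HC, and 2 (1.27%) for LH vs. NLH, against 9%, 8.01%, 8.5% and 3.5%. The medians of the 158 log2 differences lay between -0.03 and 0.10, beside -0.06 to 0.08 over all genes. The smallest adjusted p was that of Nap1l1, a histone chaperone of the SET list, at 0.0504 in LH vs. HC. In the sphingolipid list Psap, the precursor of the saposins, measured 93.6 ± 6.94, 96.5 ± 10.9, 96.5 ± 13.8 and 92.8 ± 24.8 FPKM (SD, n = 4) in HC, Ctrl, NLH and LH, and Cers6, a ceramide synthase, measured 14.6 to 17.8 FPKM in group means. In the SET list the phosphatase scaffold Ppp2r1a had group means of 73.9 to 80.6 FPKM and Anp32a, a partner of Set, of 57.3 to 71.0. In the ubiquitin list Tab2, an adaptor that binds ubiquitin chains, had group means of 8.44 to 9.72 FPKM and the deubiquitinase Cyld of 7.57 to 10.2.

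Among the JNK and motor genes, the kinesin Kif5a had group means of 108 to 128 FPKM and the neuronal kinase Mapk10 of 62.0 to 93.7, with the highest in NLH (NLH vs. HC 0.57 ± 0.22, limma adjusted p = 0.608). In Polycomb repressive complex 1, Cbx6, which binds methylated histone H3, had group means of 26.0 to 28.8 FPKM and Bmi1 of 10.7 to 14.3. In the Ly6 family, Lynx1 and Ly6h, which modulate nicotinic receptors, had group means of 26.1 to 28.2 and 23.5 to 24.9 FPKM. At the outer membrane, the channels Vdac1 and Vdac2 had group means of 69.2 to 74.9 and 44.7 to 53.0 FPKM.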

How the data were processed

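RNA-seq of 1 hippocampal library per mouse was analysed for 16 mice, 4 per group. The deposited values are FPKM per transcript, made by the authors with StringTie 1.2.3 (assembly merged over all samples) and Cufflinks on reads mapped to mm10. The aligner is HISAT2 in the study's methods and STAR 2.42a in the submitters' processing notes. FPKM are not counts, so depth was estimated from the step of 1 fragment in low values, and 72.4% to 81.6% of values lay within 0.1 of a whole fragment, where chance gives 20%. No count test was used.

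limma 3.58.1 (R 4.3.3, trend and robust) was applied to log2(FPKM + 0.1) in 1 model of 4 group means over the 16 mice, for 80137 transcripts, for FPKM summed by 18287 gene names, and for log2 ratios of each of 54193 isoforms to the rest of its gene. Fold changes are on this log2 scale, which understates changes of low transcripts. P-values were adjusted by Benjamini-Hochberg over each whole table, with a threshold of 0.05. Exact permutation tests were two-sided. The equal-variance test on FPKM, used by the study, was run as an alternative. Other alternatives were pseudocounts of 0.01 and 1, median-ratio size factors, a mean of at least 1 FPKM, a replicate block, only the 8 mice compared and leaving out each mouse. Leaving out LH replicates 3 and 4 and adding unnamed transcripts were chosen after seeing the data. On simulated data, in which 200 transcripts were changed by 4-fold in LH alone, limma recovered 70% of them for LH vs. Ctrl, 71.5% for LH vs. NLH, with 7 and 11 false calls, and made 0 calls in Ctrl vs. HC, where no difference had been simulated. The simulation used 1 spread per transcript for all groups, whereas the real LH mice varied more (median SD 0.428 against 0.178 to 0.246). Recovery and false calls in the real LH comparisons can therefore differ from these.

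The members and lists were chosen with earlier results of these data known. The leading isoform was the transcript with a mean of at least 1 FPKM and the smallest p in the comparison of the choice, or for Mtch1 the most abundant one. Other transcripts were named when they held at least 10% of the gene or passed a threshold, list genes when they passed or were the 2 most abundant, and similar transcripts as the 2 with the highest r among those with a mean of at least 1 FPKM, of which one is not reported here. Of 178 listed symbols 166 matched, and 158 genes were tested without the 7. Exons came from GENCODE vM21, promoters from RefSeq. No column was left unused.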

Additional observations from a re-analysis of the deposited data

Results flagged for a closer look

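Of 80 groups of 4 mice examined over the leading isoforms and sums, 6 held 1 mouse far from the other 3, where chance flags about 1 in 20. NLH replicate 4 was low for Set, with 10.6 FPKM of the noncoding isoform against 15.3 to 15.8 in the other NLH mice, 23.5 FPKM summed against 32.1 to 33.5, and 27.1 FPKM with unnamed transcripts against 34.3 to 35.5. LH replicate 2 was the only LH mouse with the Rnf31 retained-intron transcript above 0.01 FPKM, at 0.228. NLH replicate 1 stood above the other NLH mice for the long form of Spag9, at 0.0148 FPKM against 0.00291 at most. HC replicate 2 stood above the other HC mice for the Ly6e isoform, at 0.140 FPKM against 0.00102 at most.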

How the results depend on the processing

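Counts of the 55 transcripts past the threshold are given in the order Ctrl vs. HC, NLH vs. Ctrl, LH vs. Ctrl, LH vs. NLH, LH vs. HC and NLH vs. HC, with 0, 1, 3, 3, 3 and 3 as reported. The equal-variance test without adjustment gave 3, 11, 8, 8, 10 and 8, against 6.68%, 7.2%, 7.69%, 4.47%, 8.22% and 7.67% of all transcripts, and for summed genes (0, 0, 0, 1, 0 and 1 as reported) 1, 3, 2, 2, 2 and 2, against 8.5%, 9.57%, 8.01%, 3.5%, 9% and 11.1% of all genes. With a pseudocount of 1, transcripts fell to 0 in NLH vs. Ctrl and 0 in NLH vs. HC, and shares in LH vs. HC went from 1 to 2. With a pseudocount of 0.01, LH vs. NLH had 5 shares, and NLH vs. Ctrl and LH vs. Ctrl had 1 each. With a mean of at least 1 FPKM, transcripts were 0 in NLH vs. Ctrl and shares 0 in LH vs. HC and 0 in NLH vs. HC. Size factors gave 1 gene each in LH vs. Ctrl and LH vs. HC. With only the 8 mice compared, transcripts were 0 in NLH vs. Ctrl, 0 in LH vs. Ctrl, 1 in LH vs. HC and 1 in NLH vs. HC, and shares 1 in LH vs. NLH and 3 in NLH vs. HC. Replicate numbers did not pair the mice (r of same-numbered mice -0.0575 to 0.0874, median -0.00835, over 24 pairs). With the replicate block, transcripts were 0 in NLH vs. Ctrl, 0 in LH vs. Ctrl, 1 in LH vs. HC and 0 in NLH vs. HC, shares were 0 in LH vs. HC and 0 in NLH vs. HC, and the Set isoform had an adjusted p of 0.0702 in NLH vs. HC in limma.

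Chosen after seeing the data, leaving out LH replicates 3 and 4 gave 2 transcripts in NLH vs. Ctrl, 1, 3, 4 and 2 genes in NLH vs. Ctrl, LH vs. Ctrl, LH vs. HC and NLH vs. HC, and 1, 0 and 3 shares in LH vs. NLH, LH vs. HC and NLH vs. HC. Summed Set then passed in NLH vs. HC, at 0.72 (limma adjusted p = 0.0156). Adding unnamed transcripts gave 0 genes in LH vs. NLH, 1 in LH vs. HC and 0 in NLH vs. HC, and turned summed Mtch1 in Ctrl vs. HC from -0.76 to 0.11. Leaving out 1 mouse at a time gave, in the order above, 0, 0 to 2, 0 to 4, 2 to 4, 1 to 4 and 0 to 4 transcripts, 0, 0 to 1, 0 to 3, 1, 0 to 1 and 1 to 2 genes, and 0, 0, 0 to 2, 1 to 6, 0 to 3 and 0 to 2 shares. Small differences changed sign in NLH vs. HC for the leading isoforms of Asah1 (-0.11 to 0.07) and Rnf31 (-0.53 to 0.46, and 0.03 with a pseudocount of 1) and summed Rnf31 (-0.31 to 0.04), in Ctrl vs. HC for those of Spag9 (highest 0.08) and Phc1 (-0.01 to 0.34) and summed Ly6e (-0.01 to 0.12), and in LH vs. NLH for summed Ly6e (-0.08 to 0.15), over the mice left out. The cause was not tested. Values of a few fragments limit the low isoforms of Ly6e, Spag9, Phc1, Rnf31 and Mtch1.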
